A study of Homo sapiens with 17 samples.

Results

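A set of 9 genes that were near silent in untreated HepG2 cells and had RNA after 5-azacytidine are described here, namely ATL3, PXMP4, HPDL, TIGD7, TUBA3D, BTBD18, DCAF4L1, DHRS9 and ANXA10. These 9 genes, of 63187 in the count table, were picked by symbol for near-zero counts in the untreated libraries, so their RNA levels are given as a description and without a test. HepG2 is an established, liver-derived human cancer cell line. All cells were wild type by label and were kept for 4 days in 0 µM, 2 µM or 10 µM 5-azacytidine, with fresh medium each day; the 0 µM cells are the untreated controls. RNA-seq gave 3 libraries at each dose. ATAC-seq, which counts transposase cuts in open chromatin, gave 3 libraries each at 0 µM and 2 µM and 2 at 10 µM. The series' text calls the replicates biological but does not say that they were separate cultures, so the p-values below measure the spread between these libraries.

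5-azacytidine is a cytidine analogue. Built into DNA, it traps DNA methyltransferases, so that CpG methylation is lost as cells divide; built into RNA, it disturbs RNA metabolism and translation. Methylation of CpG-rich promoters keeps many tissue-restricted genes silent, and genes of male germ cells are a well-known group to come on after such inhibitors. The 9 genes have unrelated jobs. ATL3 is a membrane GTPase that fuses tubules of the endoplasmic reticulum. PXMP4 is a protein of the peroxisomal membrane. HPDL is a mitochondrial enzyme of coenzyme Q head group synthesis. DHRS9 is a dehydrogenase of retinoids and steroids. ANXA10 belongs to the annexins, a family of membrane-binding proteins, and is best known from stomach. TIGD7 derives from a pogo-type DNA transposase, and DCAF4L1 is a relative of DCAF4, a substrate receptor of the CUL4-DDB1 ubiquitin ligase. TUBA3D is an alpha tubulin. BTBD18 carries a BTB domain, and in mouse it drives transcription of piRNA precursors in spermatocytes. The label "non-germline" therefore suits some of them better than others: TUBA3D and DCAF4L1 are known mainly from testis, and BTBD18 has its known role in the mouse male germ line.

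Promoter windows from RefSeq (build GRCh38.p14), each holding 250 bases before and 50 bases after an annotated start, were available for 8 of the 9 genes; DCAF4L1 had none. Windows of 6 genes are shown because they span the range from CpG-rich to CpG-free and because each is taken up again below. They run 5′ to 3′ on the gene's own strand, and capitals mark CG dinucleotides.
ATL3, chr11:63671327-63671626, minus strand: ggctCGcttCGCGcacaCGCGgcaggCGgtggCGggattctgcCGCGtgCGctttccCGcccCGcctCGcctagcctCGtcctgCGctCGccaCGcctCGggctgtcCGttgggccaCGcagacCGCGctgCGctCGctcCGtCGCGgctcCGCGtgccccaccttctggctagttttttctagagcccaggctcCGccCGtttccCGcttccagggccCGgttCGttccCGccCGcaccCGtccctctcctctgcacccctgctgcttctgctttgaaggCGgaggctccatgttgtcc
TIGD7, chr16:3305381-3305680, minus strand: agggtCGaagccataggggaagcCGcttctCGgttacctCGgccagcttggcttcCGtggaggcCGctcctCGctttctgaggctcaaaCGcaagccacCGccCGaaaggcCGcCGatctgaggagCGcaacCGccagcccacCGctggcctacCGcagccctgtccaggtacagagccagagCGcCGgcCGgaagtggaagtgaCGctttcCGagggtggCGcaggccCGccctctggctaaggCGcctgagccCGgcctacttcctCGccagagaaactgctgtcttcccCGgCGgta
TUBA3D, chr2:131475869-131476168, plus strand: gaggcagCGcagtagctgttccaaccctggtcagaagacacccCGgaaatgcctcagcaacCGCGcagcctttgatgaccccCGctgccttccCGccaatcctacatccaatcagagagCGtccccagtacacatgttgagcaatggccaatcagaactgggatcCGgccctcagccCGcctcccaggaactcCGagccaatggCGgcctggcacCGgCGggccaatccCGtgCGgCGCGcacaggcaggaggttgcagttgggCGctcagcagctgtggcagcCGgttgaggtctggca
BTBD18, chr11:57751770-57752069, minus strand: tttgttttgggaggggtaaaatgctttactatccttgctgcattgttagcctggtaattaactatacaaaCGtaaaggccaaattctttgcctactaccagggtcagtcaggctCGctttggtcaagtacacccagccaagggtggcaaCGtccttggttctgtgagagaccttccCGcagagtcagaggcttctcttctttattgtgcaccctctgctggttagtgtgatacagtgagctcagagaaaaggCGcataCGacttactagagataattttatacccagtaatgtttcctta
DHRS9, chr2:169069313-169069612, plus strand: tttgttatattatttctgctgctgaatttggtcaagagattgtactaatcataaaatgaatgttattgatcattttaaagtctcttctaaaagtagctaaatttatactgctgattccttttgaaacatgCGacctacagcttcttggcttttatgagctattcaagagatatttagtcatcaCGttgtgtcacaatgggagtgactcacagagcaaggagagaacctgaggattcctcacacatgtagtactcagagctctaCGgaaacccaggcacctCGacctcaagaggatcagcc
ANXA10, chr4:168092287-168092586, plus strand: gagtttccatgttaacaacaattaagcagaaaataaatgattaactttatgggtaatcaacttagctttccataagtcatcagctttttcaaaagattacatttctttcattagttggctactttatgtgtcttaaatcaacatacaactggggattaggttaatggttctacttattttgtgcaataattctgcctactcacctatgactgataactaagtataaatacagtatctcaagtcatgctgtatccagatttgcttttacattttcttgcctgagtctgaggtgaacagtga

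The windows differed widely in CpG content. ATL3 held 38 CG dinucleotides in 300 bases, TIGD7 28, HPDL 20, TUBA3D 19, PXMP4 15 and BTBD18 6. Across all 35116 RefSeq windows the median was 14, with quartiles of 4 and 28. DHRS9 has 4 annotated starts, whose windows held 1, 4, 2 and 0 CG dinucleotides, and the window of ANXA10 held 0. The 2 genes with the poorest windows, DHRS9 and ANXA10, were also the 2 whose RNA was highest at 10 µM. The 6 with more CG dinucleotides all had their highest RNA at 2 µM, although BTBD18, with 6, lay close to the DHRS9 window with 4. This ordering rests on 8 genes and is a description.

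**Figure D1:**
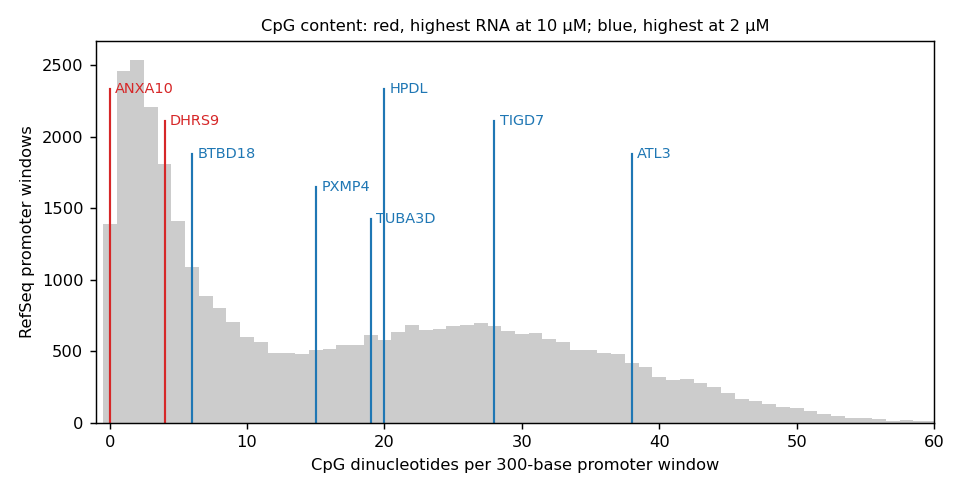
Histogram of CpG dinucleotides per 300-base window over 35116 RefSeq promoter windows (grey; windows with over 60 are outside the axis), with a vertical line at the count of each gene that has a window. Red lines mark DHRS9 (4, the window under its ATAC peak) and ANXA10 (0), whose RNA was highest at 10 µM, and blue lines mark the 6 genes highest at 2 µM, from 6 in BTBD18 to 38 in ATL3; line heights carry no value.

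Short motifs were looked for on both strands, chosen after the sequences had been seen. The CCAAT box, to which the factor NF-Y binds, matched 5 times in the TUBA3D window and 3 times in the PXMP4 window, and 34.6% of all windows held at least 1 match. TATAAA occurred once each in the BTBD18, ANXA10 and printed DHRS9 windows, against 11.5% of all windows with a match. TGACTCA, the classical AP-1 element, occurred once in the printed DHRS9 window and in 4.95% of all windows. These matches are letters in a window and were not tested as binding sites.

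RNA is given in CPM, the reads of a gene per 1e+06 library reads after scaling each library with TMM factors. Exon lengths were not used, so CPM values compare one gene across libraries and do not rank genes against each other. In these bulk libraries, more cells with an RNA and more RNA per cell cannot be told apart. All 9 genes passed the filter on low counts. In the 3 untreated libraries, 5 of them (ATL3, HPDL, TIGD7, TUBA3D and BTBD18) had 0 reads, and the highest untreated mean of the other 4 was 0.0770 CPM, in DHRS9. At 2 µM, 8 genes averaged at least 1 CPM; at 10 µM 4 did, and 3 did so at both doses.

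The 9 genes fell into 3 patterns across the doses. ATL3 and DCAF4L1 were present at both drug doses. PXMP4, HPDL, TUBA3D, BTBD18 and TIGD7 peaked at 2 µM and were much lower at 10 µM. DHRS9 and ANXA10 were highest at 10 µM. These levels chose the genes, so the counts that follow only describe them. At 2 µM, 8 of 9 genes had every library above every 0 µM library, against 11.2% of all 18999 genes tested. At 10 µM it was 7 of 9, against 29.9%. With untreated levels near 0, the 9 genes had almost no room to lie below the untreated range, and none did. The shares of all genes that did, 8.01% at 2 µM and 29% at 10 µM, are therefore no contrast to the 9. Between 10 µM and 2 µM, 5 of 9 were lower without overlap, against 28.5% of all genes, and 2 were higher without overlap, against 27.2%.

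**Figure D2:**
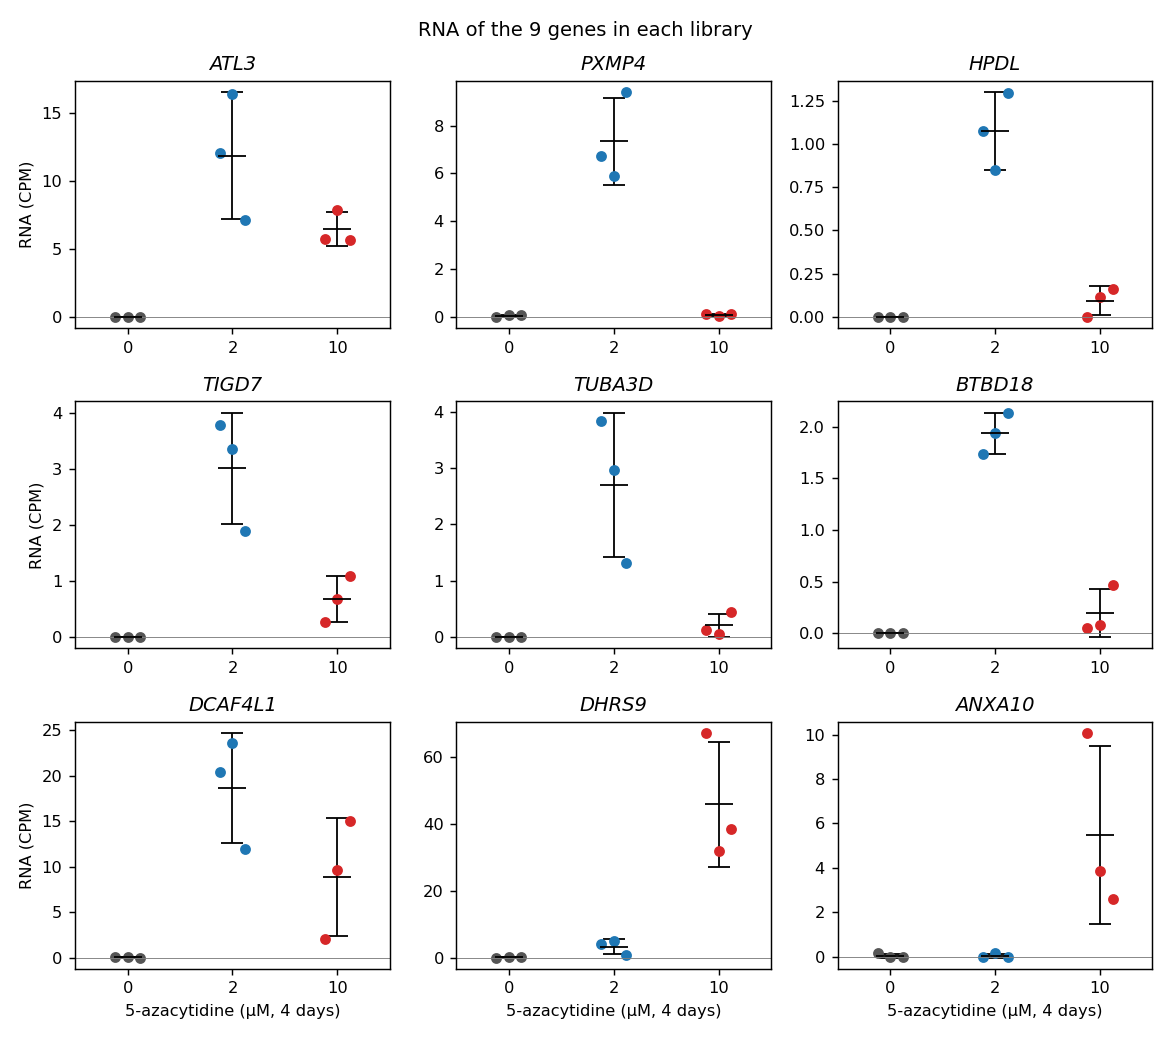
RNA in CPM (linear axis, a separate scale in each panel) of each gene in the 3 libraries per dose, against 5-azacytidine at 0, 2 and 10 µM. Points are libraries in replicate order, and bars are the mean ± SD (n = 3). 7 genes peak at 2 µM, while DHRS9 reaches 32.0 to 67.2 CPM and ANXA10 2.59 to 10.1 CPM at 10 µM.

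ATL3 (ENSG00000184743.13; chr11:63624087-63671974, minus strand) had 0 reads in all 3 untreated libraries. It reached 12.1, 16.5 and 7.12 CPM at 2 µM, and 5.77, 7.90 and 5.68 CPM at 10 µM. The drug doses overlapped each other, since the lowest 2 µM library lay below the highest 10 µM library. Set against a floor of 3 reads over the untreated group, ATL3 was at least 428-fold higher at 2 µM and at least 239-fold higher at 10 µM. Its mean at 10 µM was 54.2% of that at 2 µM.

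DCAF4L1 (ENSG00000182308.7; chr4:41981756-41986465) was close to silence, with 0.0625, 0.0772 and 0.0256 CPM at 0 µM. It had 20.4, 23.6 and 11.9 CPM at 2 µM, and 2.06, 9.59 and 15.0 CPM at 10 µM. The 10 µM libraries were the most spread of the 3 doses, and 1 of them lay above the lowest 2 µM library. The 10 µM mean was 47.6% of the 2 µM mean. DCAF4L1 and ATL3 were also alike from library to library, with a Pearson r of 0.956 between their log2(CPM + 0.5) values over the 9 libraries.

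PXMP4 (ENSG00000101417.12; chr20:33702758-33720310, minus strand) showed the sharpest return towards silence among the 9. It had 0, 0.0514 and 0.0512 CPM at 0 µM, 6.73, 5.90 and 9.40 CPM at 2 µM, and 0.0957, 0.0384 and 0.101 CPM at 10 µM. Every 2 µM library stood far above all other libraries, and the 10 µM and 0 µM libraries overlapped. By summed reads PXMP4 was 204-fold higher at 2 µM than at 0 µM (95% exact interval 79.6 to 752), and 96.9-fold lower at 10 µM than at 2 µM (53.9 to 195). These intervals cover counting error only. At 10 µM against 0 µM the ratio was 2.11 with an interval of 0.625 to 9.09, so a difference was not detectable at this depth.

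HPDL (ENSG00000186603.7; chr1:45326895-45328710, plus strand) had 0 reads in every untreated library. It had 1.08, 0.849 and 1.30 CPM at 2 µM, and 0, 0.115 and 0.162 CPM at 10 µM, where 1 library again had no read. Its 10 µM mean was 8.58% of the 2 µM mean.

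TUBA3D (ENSG00000075886.11; chr2:131476119-131482934, plus strand) likewise had 0 reads at 0 µM. It had 3.84, 2.96 and 1.32 CPM at 2 µM, and 0.120, 0.0577 and 0.445 CPM at 10 µM. The doses did not overlap, and the 10 µM mean was 7.66% of the 2 µM mean. Its relative TUBA3E followed the same order, with 0 reads at 0 µM, 50 reads over the 2 µM libraries and 2 reads over the 10 µM libraries. TUBA3C, a further close copy, had 0 reads in all 9 libraries. How reads shared by such near-identical copies were assigned is not stated in the labels or file headers, so the split between TUBA3D and TUBA3E is uncertain.

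BTBD18 (ENSG00000233436.8; chr11:57743514-57753166, minus strand) also had 0 reads at 0 µM. It had 1.73, 1.94 and 2.13 CPM at 2 µM, and 0.0479, 0.0769 and 0.465 CPM at 10 µM. The 2 µM libraries were tight, at 1.94 ± 0.200 CPM (SD, n = 3), and 1 of the 10 µM libraries carried most of that dose's reads. The 10 µM mean was 10.2% of the 2 µM mean.

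TIGD7 (ENSG00000140993.11; chr16:3298808-3305430, minus strand) had 0 reads at 0 µM, 3.79, 3.35 and 1.90 CPM at 2 µM, and 0.263, 0.673 and 1.09 CPM at 10 µM. It kept more at the high dose than the previous 4 genes, with a 10 µM mean at 22.4% of the 2 µM mean. It was at least 108-fold above the untreated floor at 2 µM and at least 25.6-fold at 10 µM.

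DHRS9 (ENSG00000073737.17; chr2:169067077-169096167, plus strand) ran the other way. It had 0, 0.129 and 0.102 CPM at 0 µM, 3.94, 5.02 and 0.853 CPM at 2 µM, and 67.2, 32.0 and 38.4 CPM at 10 µM. No dose overlapped another, and the level was higher at each step. By summed reads it was 543-fold higher at 10 µM than at 0 µM (95% exact interval 286 to 1188) and 14.1-fold higher at 10 µM than at 2 µM (12.7 to 15.6).

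ANXA10 (ENSG00000109511.12; chr4:168092537-168187736, plus strand) had more than a few reads at 10 µM only. It had 0.156, 0 and 0 CPM at 0 µM, 0, 0.146 and 0 CPM at 2 µM, and 10.1, 3.84 and 2.59 CPM at 10 µM. The 2 lower doses held 5 reads at 0 µM and 6 reads at 2 µM, and each dose's reads came from 1 library. The summed level of 6 stomach epithelium markers ranged from 0.232 to 4.58 CPM at 0 µM, from 0.703 to 1.32 CPM at 2 µM and from 1.65 to 2.37 CPM at 10 µM. MUC6 and GKN1 had 0 reads at every dose. GKN2 had 0 reads at 0 µM and 2 µM but had reads at 10 µM, whereas TFF2 had reads at 0 µM only.

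The libraries of a dose did not move as one. Replicate 3 at 10 µM was the highest of its dose for 6 of the 9 genes, while replicate 1 was the highest for DHRS9 and ANXA10. Replicate 3 at 2 µM was the lowest of its dose for 5 genes. With 1 library of a dose left out in turn, 7 or 8 genes averaged at least 1 CPM at 2 µM (7 without replicate 3), and 4 did at 10 µM.

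The 9 genes can be set beside all protein-coding genes that averaged under 0.1 CPM untreated and at least 1 CPM at a drug dose. There were 107 of these, the 9 included. Of the 107, 26 (24.3%) were highest at 2 µM and 81 at 10 µM, whereas 7 of the 9 were highest at 2 µM. The 9 were picked with these levels known, so the contrast in shares is a description.

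**Figure D3:**
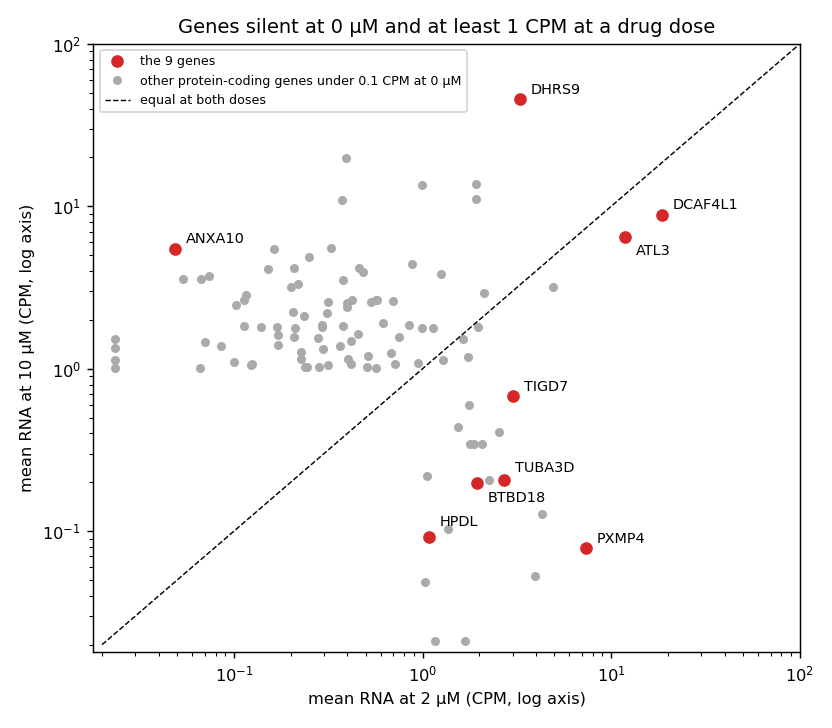
Mean RNA at 10 µM against mean RNA at 2 µM, both in CPM on log axes, for the 107 protein-coding genes under 0.1 CPM at 0 µM and at least 1 CPM at a drug dose; means below the floor of 3 reads per dose are drawn at that floor. 7 of the 9 genes (red) lie under the dashed line of equal levels, from ATL3 near it to PXMP4 far below, and DHRS9 and ANXA10 lie above it among most of the other genes (grey).

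For each gene, the 2 protein-coding genes with the most similar profile over the 9 libraries were found by Pearson r on log2(CPM + 0.5). ATL3 was closest to TDRD9 (r = 0.991), a helicase of the germline piRNA pathway, and then to NSD1. TIGD7 was closest to PNLDC1 (r = 0.983), a piRNA-trimming nuclease, and to the testis histone H1-6. DCAF4L1 had NSD1 (r = 0.973) and the germline gene TDRD1 (r = 0.971). PXMP4 was closest to COL21A1 (r = 0.994), HPDL to OXT (r = 0.990) and PRAME (r = 0.986), BTBD18 to OXT (r = 0.990), and TUBA3D to EMC10 (r = 0.983). DHRS9 was closest to ZNF804A (r = 0.998) and ANXA10 to KCNMA1 (r = 0.995). All these values share the same libraries and dose steps, so high r values are common and carry no test.

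Markers of other cell types were followed in the same libraries. The summed level of 7 male germ cell markers ranged from 0 to 0.358 CPM at 0 µM, from 0.602 to 1.13 CPM at 2 µM and from 0.211 to 0.627 CPM at 10 µM. TNP1 and SYCP1 had 0 reads at every dose. DDX4, PRM1 and PRM2 had 0 reads at 0 µM and had reads at 2 µM, and PRM1 and PRM2 had 0 reads again at 10 µM. ACRV1 had reads at 10 µM only. The hepatocyte markers that fit the line's label were present, but the sum of 8 ranged from 33940 to 55820 CPM at 0 µM, from 15000 to 26080 CPM at 2 µM and from 1218 to 2000 CPM at 10 µM. The sum of 6 leukocyte markers ranged from 2335 to 3455 CPM at 0 µM, from 1124 to 1699 CPM at 2 µM and from 58.0 to 89.8 CPM at 10 µM. Among these markers, PTPRC had 0 reads throughout, and CD3E had 0 reads at 2 µM and 10 µM. The part of these shifts in the levels of the 9 genes was not tested.

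Open chromatin at the genes was measured over 58372 peaks with counts, all of the same width, on hg38. Only 3 of these peaks carried the symbol of one of the 9 genes: promoter peaks of DHRS9 and BTBD18, and a distal peak of PXMP4. ATL3, HPDL, TIGD7, TUBA3D, DCAF4L1 and ANXA10 had no peak with their symbol and none inside their span, although 4 of these 6 had at least 1 CPM of RNA in each 2 µM library and HPDL had at least 0.849 CPM. Of the 107 silent-then-on genes, 83 (77.6%) had a peak of any kind with their symbol. A promoter peak was annotated to 32 of the 107 (29.9%), against 9205 of 11397 protein-coding genes (80.8%) with at least 1 CPM untreated. ATAC reads were not used in choosing the genes, and peaks were tested with edgeR's quasi-likelihood test with Benjamini-Hochberg adjustment over all peaks.

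ATAC signal at the DHRS9 promoter rose at 10 µM. Its peak at chr2:169069303-169069803, over the printed DHRS9 window, had 3.15, 1.22 and 1.33 CPM at 0 µM, 2.06, 1.38 and 2.32 CPM at 2 µM, and 14.8 and 14.8 CPM at 10 µM. Both 10 µM libraries stood above all others, and the lower doses overlapped. The log2 change was 3.06 ± 0.30 (SE) at 10 µM over 0 µM (edgeR adjusted p = 2.1e-10) and 2.85 ± 0.31 at 10 µM over 2 µM (edgeR adjusted p = 5.7e-09), and both calls held in all 12 alternatives run. Of all peaks, 29.9% were called higher at 10 µM over 0 µM and 27.5% at 10 µM over 2 µM; of 19763 promoter peaks, 20.5% and 24.5% were. At 2 µM over 0 µM the log2 change was 0.21 with a 95% interval of -0.61 to 1.03 (edgeR adjusted p = 0.76), while DHRS9 RNA was above the untreated range in all 3 libraries at 2 µM. The difference between the RNA and ATAC responses was not tested, since they come from different libraries.

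The peak annotated as the BTBD18 promoter already had signal in untreated cells, where BTBD18 RNA had 0 reads. The peak at chr11:57751623-57752123 had 9.94, 9.38 and 11.7 CPM at 0 µM, 14.4, 14.1 and 11.9 CPM at 2 µM, and 8.59 and 8.92 CPM at 10 µM. It lies over the printed BTBD18 window, inside the gene's span rather than at its 5′ end (57753166), where no peak was counted. Its log2 change was 0.35 ± 0.19 (SE) at 2 µM over 0 µM, which did not pass the test (edgeR adjusted p = 0.20; 95% interval -0.028 to 0.73). Of all promoter peaks, 7.04% were called higher and 5.01% lower in that comparison. The change at 10 µM over 0 µM was -0.24 ± 0.22 (edgeR adjusted p = 0.36; 14.9% of promoter peaks were called lower). At 10 µM over 2 µM the peak was lower, by a log2 change of -0.59 ± 0.22 (edgeR adjusted p = 0.022; 27.6% of all peaks and 13.7% of promoter peaks were called lower). That call was lost with DESeq2 (adjusted p = 0.070) and without 2 µM replicate 1 (edgeR adjusted p = 0.058), 2 µM replicate 2 (edgeR adjusted p = 0.058) or 10 µM replicate 1 (edgeR adjusted p = 0.14).

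The peak upstream of PXMP4 lost signal at both doses. It lies at chr20:33724437-33724937, 4127 bases upstream of the gene's annotated span, and is annotated as distal intergenic. It had 22.3, 15.6 and 16.3 CPM at 0 µM, 7.90, 8.94 and 8.87 CPM at 2 µM, and 8.99 and 7.39 CPM at 10 µM. All 5 treated libraries lay below all 3 untreated ones. The log2 change was -1.04 ± 0.20 (SE) at 2 µM over 0 µM (edgeR adjusted p = 0.00024; 7.3% of all peaks were called lower) and -1.10 ± 0.21 at 10 µM over 0 µM (edgeR adjusted p = 3.9e-05; 27.6% were called lower). Between 10 µM and 2 µM it did not pass the test, at -0.055 with an interval of -0.52 to 0.41 (edgeR adjusted p = 0.86), while PXMP4 RNA differed 96.9-fold between those doses.

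**Figure D4:**
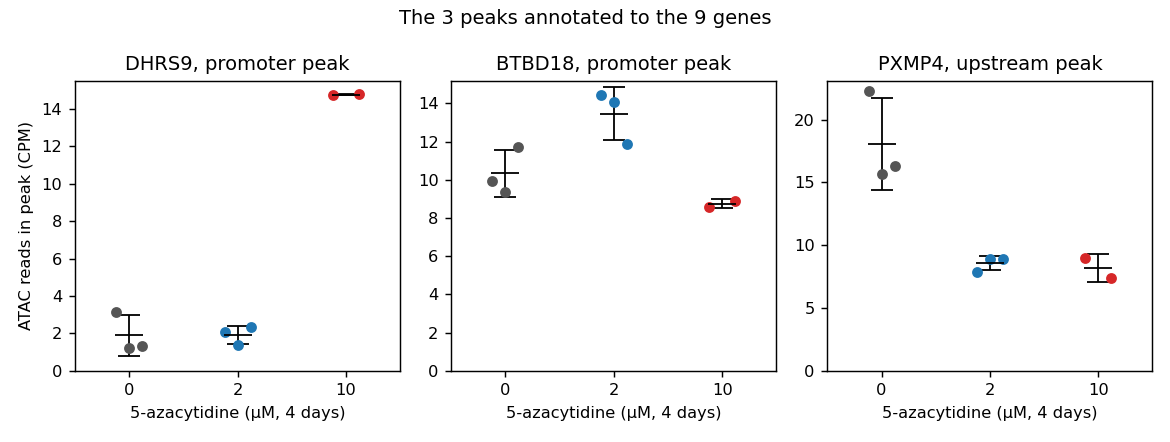
ATAC reads in CPM (linear axis from 0) in the 3 peaks annotated to the genes, against 5-azacytidine at 0, 2 and 10 µM. Points are libraries and bars the mean ± SD (n = 3 at 0 and 2 µM, n = 2 at 10 µM). DHRS9 stands at 14.8 CPM in both 10 µM libraries, BTBD18 is present at every dose, and PXMP4 is lower at both drug doses.

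Another 64 peaks lay within 50 kb of the 9 genes, a set added after the data had been seen. At 2 µM over 0 µM, 7 were higher and 4 lower (15.5% and 7.3% of all peaks). The counts were 17 higher and 16 lower at 10 µM over 0 µM (29.9% and 27.6% of all peaks), and 10 higher and 18 lower at 10 µM over 2 µM (27.5% and 27.6%). ANXA10 had no counted peak within 50 kb, and TIGD7's nearest lay 15190 bases away.

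ATL3, PXMP4 and BTBD18 had another gene's peak within 2 kb. Beyond the 3′ end of ATL3, the peak at chr11:63622203-63622703, annotated to PLAAT3, averaged 11.5 ± 1.19 CPM at 10 µM (SD, n = 2), against 4.23 ± 0.592 CPM at 0 µM (SD, n = 3), a log2 change of 1.48 ± 0.25 (SE; edgeR adjusted p = 6.2e-06). Beyond the 3′ end of PXMP4, the peak at chr20:33701861-33702361, annotated to E2F1, averaged 4.45 ± 0.786 CPM at 10 µM, against 22.4 ± 1.61 CPM at 0 µM, a log2 change of -2.36 ± 0.22 (edgeR adjusted p = 4.3e-11). It was also lower at 2 µM, where PXMP4 RNA was highest, with 14.9 ± 0.571 CPM (SD, n = 3) and a log2 change over 0 µM of -0.57 ± 0.16 (edgeR adjusted p = 0.010). The SELENOH promoter peak, 1872 bases from BTBD18, passed the test in no comparison (edgeR adjusted p = 0.10 to 0.58).

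Of the 64 peaks, 4 (6.25%) were higher at 2 µM over 0 µM and lower at 10 µM over 2 µM. This is the RNA course of PXMP4, HPDL, TUBA3D, BTBD18 and TIGD7. Of all 58372 peaks, 3.81% had the same pair of calls, and the difference in shares was not tested. The 4 peaks lay within 50 kb of PXMP4, TUBA3D or BTBD18, and none lay near HPDL or TIGD7. They were looked for after the values had been seen, and the 2 with both log2 changes above 1 in size are given; 820 of all peaks (1.4%) met that rule. The peak at chr2:131511548-131512048, 28614 bases from TUBA3D, was annotated to CCDC74A and as intronic. It lay outside the span of CCDC74A and inside that of the transcribed pseudogene SMPD4BP. It had 5.09, 2.18 and 1.33 CPM at 0 µM, 25.1, 21.0 and 19.8 CPM at 2 µM, and 4.83 and 5.22 CPM at 10 µM. It changed by 3.01 ± 0.27 on the log2 scale (SE) at 2 µM over 0 µM (edgeR adjusted p = 3.3e-09) and by -2.11 ± 0.27 at 10 µM over 2 µM (edgeR adjusted p = 8.1e-08). The promoter peak of ACTL10 at chr20:33666551-33667051, 35707 bases from PXMP4, had 8.003, 6.25 and 4.17 CPM at 0 µM, 25.8, 27.9 and 27.1 CPM at 2 µM, and 7.92 and 6.52 CPM at 10 µM. It changed by 2.15 ± 0.20 at 2 µM over 0 µM (edgeR adjusted p = 5.5e-09) and by -1.88 ± 0.22 at 10 µM over 2 µM (edgeR adjusted p = 1.2e-08). In both peaks every 2 µM library lay above every other library. RNA of ACTL10 itself was low, with 2 reads at 0 µM, 49 at 2 µM and 19 at 10 µM. Its log2 change was 4.21 at 2 µM over 0 µM (edgeR adjusted p = 0.073). At 10 µM over 2 µM it was -1.52 (edgeR adjusted p = 0.20), and neither change passed the test. RNA of CCDC74A averaged 0.313 CPM at 0 µM, 0.472 at 2 µM and 1.14 at 10 µM. Whether these peaks act on ACTL10, CCDC74A, SMPD4BP, TUBA3D or PXMP4 was not tested.

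The neighbours of the 9 genes were tested next. Genes not found by symbol in the count table were left out, among them LNCROPM overlapping ATL3 and TMX2-CTNND1 overlapping BTBD18. Of the 37 genes within 50 kb that were in the count table, 29 were tested. At 2 µM over 0 µM, 1 was higher and 0 were lower by edgeR's adjusted p (3.22% and 1.06% of all genes); DESeq2 called 2 higher and 0 lower, and at an unadjusted edgeR p under 0.05 there were 4 higher and 0 lower. The counts at 10 µM over 0 µM were 7 higher and 6 lower, against 23% and 25.1% of all genes, and at 10 µM over 2 µM, 4 were higher and 6 lower, against 16.8% and 21.6%. The median log2 change of the 29 was 0.16 at 2 µM over 0 µM, against -0.0097 over all genes, and 0.12 at 10 µM over 0 µM, against -0.016.

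The 1 neighbour called at 2 µM was ZNF75A, a zinc finger gene whose annotated start lies inside the printed TIGD7 window and which runs away from it. ZNF75A had 0.938, 1.39 and 1.82 CPM at 0 µM, 3.69, 5.12 and 3.67 CPM at 2 µM, and 1.05, 3.0 and 2.29 CPM at 10 µM. All 2 µM libraries lay above the others, and the doses stood in the same order as for TIGD7. The log2 change was 1.58 ± 0.41 (SE) at 2 µM over 0 µM (edgeR adjusted p = 0.045). The call was lost when 0 µM replicate 1 (edgeR adjusted p = 0.15) or 2 (0.095), 2 µM replicate 1 (0.10) or 2 (0.16), or 10 µM replicate 3 (0.061) was left out. ZNF263, which overlaps TIGD7, did not pass at 2 µM, with 22.6 ± 2.75 CPM against 24.4 ± 2.25 CPM at 0 µM (SD, n = 3 each), and was higher at 10 µM by a log2 change of 0.72 ± 0.19 (SE; edgeR adjusted p = 0.0068).

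Next to DHRS9, ABCB11, the bile salt export pump of hepatocytes, also came up from near silence at 10 µM. It had 0.0938, 0 and 0.0256 CPM at 0 µM, 0.201, 0.218 and 0 CPM at 2 µM, and 2.54, 1.12 and 1.76 CPM at 10 µM. The 10 µM libraries did not overlap the others, and the log2 change at 10 µM over 0 µM was 5.49 ± 0.99 (SE; edgeR adjusted p = 0.00055). The summed hepatocyte markers were lower at that dose, as given above. LRP2, also beside DHRS9, averaged 0.273 CPM at 0 µM, 0.414 at 2 µM and 0.0816 at 10 µM. It was lower at 10 µM over 2 µM, by a log2 change of -2.29 ± 0.83 (SE, edgeR adjusted p = 0.044), and did not pass the test over 0 µM at either dose. The other neighbours higher at 10 µM over 0 µM were ZNF341 beside PXMP4, CCDC74A beside TUBA3D, ZDHHC5 and MED19 beside BTBD18, and TMEM33 beside DCAF4L1. Those lower were PLAAT3 beside ATL3, E2F1 and NECAB3 beside PXMP4, TESK2 beside HPDL, MZT2A overlapping TUBA3D, and SLC30A9 beside DCAF4L1. MZT2A had 126 CPM at 0 µM, then 108 at 2 µM and finally 59.1 at 10 µM, a course unlike that of TUBA3D. CCDC74A lost its call without 10 µM replicate 1 (edgeR adjusted p = 0.080) or replicate 3 (0.060), ZDHHC5 without 10 µM replicate 2 (0.063), and TMEM33 when 0 µM replicate 1 (0.12) or 3 (0.088), or 10 µM replicate 1 (0.12) or 3 (0.065), was left out. SLC30A9 lost its call in 10 of 13 alternatives, among them each 10 µM library left out (edgeR adjusted p = 0.13 to 0.18), 0 µM replicate 1 (0.075) or 2 (0.14) and 2 µM replicate 1 (0.064) or 3 (0.064). SELENOH, which overlaps BTBD18, passed the test in no comparison. No source used here states if strand was counted, and reads of overlapping genes could then be mixed.

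**Figure D5:**
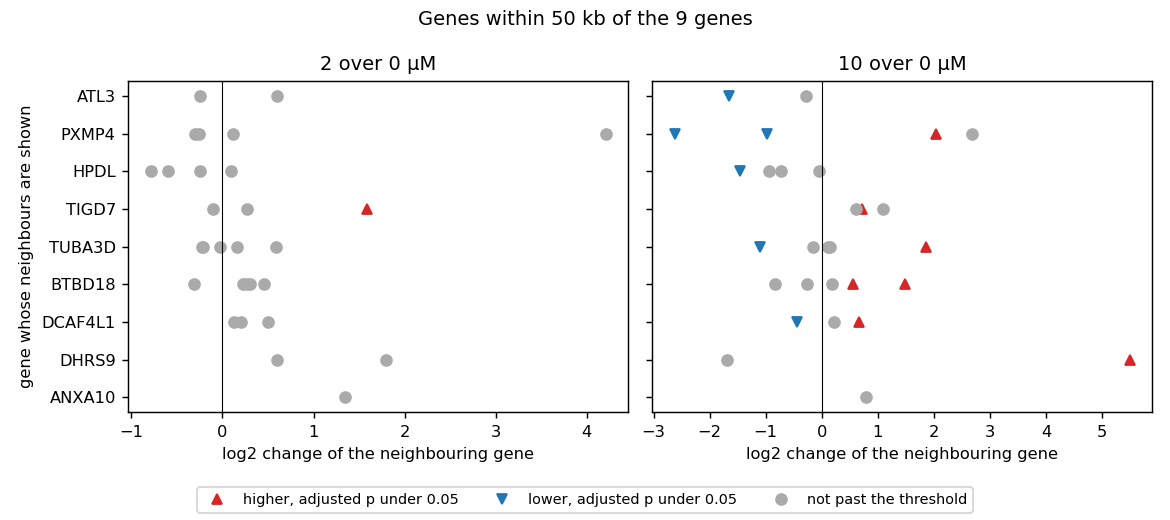
log2 change of each tested gene within 50 kb of the 9 genes, one row per gene whose neighbours are shown, at 2 µM over 0 µM (left) and 10 µM over 0 µM (right; the axes differ in range). Red triangles are higher and blue triangles lower at an edgeR adjusted p under 0.05: 1 neighbour at 2 µM (ZNF75A beside TIGD7), and 7 higher and 6 lower at 10 µM.

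The pathways and families of the 9 genes were followed with lists of 141 other genes, of which 124 were tested. At 2 µM over 0 µM, 6 were higher and 3 lower (4.84% and 2.42%, against 3.22% and 1.06% of all genes). By 10 µM over 0 µM, 25 were higher and 36 lower (39 and 26 when libraries were scaled by total counts), and at 10 µM over 2 µM, 14 were higher and 34 lower. The shares at 10 µM over 0 µM, 20.2% and 29%, lay near the 23% and 25.1% of all genes; at 10 µM over 2 µM they were 11.3% and 27.4%, against 16.8% and 21.6%. The median log2 change over the lists was -0.019 at 2 µM over 0 µM and 0.000013 at 10 µM over 0 µM, close to the medians over all genes.

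Among endoplasmic reticulum shaping genes, the partners of ATL3, 0 of 13 passed the test in either direction at 2 µM over 0 µM with edgeR or with DESeq2, and 1 was lower at an unadjusted edgeR p under 0.05. The higher dose gave 2 that rose and 4 that fell over 0 µM (15.4% and 30.8%, against 23% and 25.1% of all genes). RTN4, a membrane-curving reticulon, rose by a log2 change of 1.34 ± 0.22 (SE; edgeR adjusted p = 0.00026). REEP6 fell by 2.79 on the log2 scale (edgeR adjusted p = 1.4e-05), and REEP4 and ARL6IP1 fell too. The other atlastins did not pass the test at either dose: ATL2 averaged 170 CPM at 0 µM, then 139 at 2 µM and finally 140 at 10 µM, and ATL1 averaged 1.77 CPM at 0 µM, then 1.75 at 2 µM and finally 1.58 at 10 µM.

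Of 23 tested genes of the peroxisomal membrane and of peroxisome biogenesis, the list of PXMP4, 0 were higher and 1 lower at 2 µM over 0 µM (edgeR and DESeq2; 0 and 3 at an unadjusted edgeR p under 0.05). TMEM135, a protein of peroxisomes and mitochondria, had 61.4 CPM at 2 µM, against 132 CPM at 0 µM, a log2 change of -1.11 ± 0.25 (SE; edgeR adjusted p = 0.027). That call was lost without 2 µM replicate 1 (edgeR adjusted p = 0.12) or replicate 2 (0.11). The higher dose gave 5 that rose and 8 that fell over 0 µM (21.7% and 34.8%, against 23% and 25.1% of all genes). TMEM135 and MPV17 were among those lower, and PEX26, an anchor of the import machinery, among those higher.

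Of 16 tested genes of tyrosine breakdown and coenzyme Q synthesis, the list of HPDL, 1 fell and 0 rose at 2 µM over 0 µM, and 7 fell and 0 rose at 10 µM over 0 µM, with the same counts from DESeq2. The 7 are 43.8% of the list, against 25.1% of all genes lower at that dose. At an unadjusted edgeR p under 0.05, 1 was higher at 2 µM and 0 at 10 µM. HPD, the close relative of HPDL in tyrosine breakdown, had 242 ± 40.0 CPM at 0 µM, then 276 ± 59.4 at 2 µM and finally 36.6 ± 5.50 at 10 µM (SD, n = 3 each), a log2 change of -2.73 ± 0.22 (SE) at 10 µM over 0 µM (edgeR adjusted p = 1.2e-06). HGD and TAT, enzymes of the same pathway, fell at 10 µM by 3.14 and 3.46 on the log2 scale. These are genes of hepatocyte metabolism, and the summed hepatocyte markers were lower in the same libraries; their part in this was not tested.

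Of 11 pogo-derived genes, the relatives of TIGD7, 0 passed the test at 2 µM over 0 µM with edgeR or DESeq2, and 2 were higher at an unadjusted edgeR p under 0.05. At 10 µM over 0 µM, JRK, POGK and TIGD6 rose by 0.94, 0.83 and 0.92 on the log2 scale, and 2 genes fell, TIGD3 by 2.09 on that scale. These are 27.3% higher and 18.2% lower, near the 23% and 25.1% of all genes.

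Of 6 tested alpha tubulins, 2 were higher and 0 lower at 2 µM over 0 µM, with edgeR and DESeq2 and at an unadjusted edgeR p under 0.05 (3.22% and 1.06% of all genes were called by edgeR). They were TUBA1A, with 78.0 ± 37.6 CPM at 2 µM against 28.9 ± 5.37 CPM at 0 µM (SD, n = 3 each; edgeR adjusted p = 0.025), and TUBA3E, with 0.427, 0.461 and 0.298 CPM at 2 µM against 0 reads at 0 µM (edgeR adjusted p = 0.013). Since the split of reads between TUBA3D and TUBA3E is uncertain, the TUBA3E call may rest in part on reads of TUBA3D, a gene chosen for this rise. The TUBA3E call was lost with the replicate number as a block (edgeR adjusted p = 0.059) and without 2 µM replicate 1 (0.051) or replicate 2 (0.065). The TUBA1A call was lost without 0 µM replicate 1 (edgeR adjusted p = 0.081), 2 µM replicate 1 (0.13) or 2 µM replicate 2 (0.11). TUBA1A also rose at 10 µM over 0 µM, while TUBA1B, an abundant alpha tubulin, and TUBA4A fell (23% of all genes rose and 25.1% fell). TUBA4A lost its call with total-count scaling (edgeR adjusted p = 0.14) and when 0 µM replicate 1 (0.057) or 3 (0.084), or 10 µM replicate 1 (0.14) or 3 (0.083), was left out.

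Of 12 tested BTB domain genes, 0 passed edgeR's test at 2 µM over 0 µM (2 higher by DESeq2; 1 higher and 1 lower at an unadjusted edgeR p under 0.05), and 5 rose and 2 fell at 10 µM over 0 µM (41.7% and 16.7%, against 23% and 25.1% of all genes). BTBD9 rose by 2.24 and BTBD10 by 1.82 on the log2 scale, and ABTB2 rose by 1.04, whereas BTBD16 fell by 3.08. Of 17 tested genes of the CUL4-DDB1 ligase and its receptors, 0 passed at 2 µM with edgeR or DESeq2 (1 lower at an unadjusted edgeR p under 0.05), and 3 rose and 3 fell at 10 µM over 0 µM (17.6% each, below the 23% and 25.1% of all genes). DCAF4, from which DCAF4L1 takes its name, had 18.2 CPM at 0 µM, then 22.4 at 2 µM and finally 36.6 at 10 µM, and rose by 1.01 ± 0.22 (SE) on the log2 scale at 10 µM over 0 µM (edgeR adjusted p = 0.0022). DCAF8 rose as well. DCAF11 and the DNA damage receptor DDB2 fell by 1.58 and 1.24 on the log2 scale. DCAF4L2, the other DCAF4-like gene, had 0 reads at 0 µM, 5 at 2 µM and 6 at 10 µM, too few to be tested.

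Retinoid genes, the list of DHRS9, moved in both directions at both doses. Of 17 tested, 2 rose and 1 fell at 2 µM over 0 µM, and 3 rose and 5 fell at 10 µM over 0 µM. The shares were 11.8% and 5.88% at 2 µM, against 3.22% and 1.06% of all genes, and 17.6% and 29.4% at 10 µM, against 23% and 25.1%. CYP26B1, which breaks down retinoic acid and is a known retinoic acid target, averaged 0.108 ± 0.0181 CPM at 0 µM, then 1.06 ± 0.564 at 2 µM and finally 1.78 ± 0.263 at 10 µM (SD, n = 3 each). Its log2 change over 0 µM was 3.24 ± 0.52 (SE) at 2 µM and 4.00 ± 0.52 at 10 µM (edgeR adjusted p = 0.0041 and 4.6e-05). ALDH1A3, a retinal-oxidising enzyme, rose at 10 µM over 0 µM (log2 change 5.08 ± 0.91; edgeR adjusted p = 0.00056), while ALDH1A1, which has the same activity, had 286 CPM at 0 µM, then 117 at 2 µM and finally 11.2 at 10 µM and fell at both doses. DHRS2, a family member of DHRS9, fell by 3.26 on the log2 scale at 10 µM over 0 µM.

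Of 9 tested annexins, the family of ANXA10, 2 rose and 0 fell at 2 µM over 0 µM (the same with DESeq2; 3 and 2 at an unadjusted edgeR p under 0.05), and 3 rose and 3 fell at 10 µM over 0 µM. All genes gave 3.22% higher and 1.06% lower at 2 µM, and 23% and 25.1% at 10 µM, against 33.3% of the annexins each way at 10 µM. ANXA3 had 6.03 to 8.41 CPM at 0 µM, 17.99 to 47.9 CPM at 2 µM and 31.6 to 42.3 CPM at 10 µM, with a log2 change over 0 µM of 2.33 ± 0.32 (SE) at 2 µM and 2.34 ± 0.32 at 10 µM (edgeR adjusted p = 0.0019 and 7.2e-05). ANXA3 and ANXA2 were already higher at 2 µM, where ANXA10 had 6 reads; the ANXA2 call was lost without 2 µM replicate 1 (edgeR adjusted p = 0.051) or replicate 2 (0.053). ANXA9, ANXA4 and ANXA6 fell at 10 µM over 0 µM, by 4.31, 1.77 and 1.31 on the log2 scale.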

How the data were processed

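RNA-seq and ATAC-seq libraries of HepG2 cells (9 and 8) were used as deposited. For RNA, the authors deposited raw counts of reads for each gene; for ATAC, raw counts of reads in an authors' consensus set of 63621 peaks, of which 58372 had counts. The submitters' processing notes list hg38 with DiffBind 3.12.0, DESeq2 1.42.1, HTSeq 2.0.4 and HISAT2 2.2.1, without roles. RNA kits were stranded per the labels; use of strand in counting is not given. The deposited normalized signal table was used only as a check: its columns for 10 µM replicates 2 and 3 held each other's counts. The deposited peak list holds a score per peak, which was not used. RNA libraries held 35553052 to 46430168 counted reads and ATAC libraries 2896671 to 7864321 reads in peaks.

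Genes were matched by identifier (62666 of 63187). Counts were fitted with edgeR 4.0.16 in R 4.3.3 (TMM, filterByExpr, quasi-likelihood F-test, Benjamini-Hochberg over all features, threshold 0.05), in one fit per assay over the 3 doses; the fit was tested on simulated data. SE values were taken from the log2 change and its F. DESeq2 1.42.0, total-count scaling, no filter, a threshold of 0.01, a 10 kb window, a replicate block and leaving out each library were alternatives. Same-numbered RNA libraries at 0 and 2 µM deviated together (r = 0.325, 0.388 and 0.359), so a block over those 6 libraries was added after seeing the data; other pairs of doses, and ATAC, did not pair (r from -0.226 to 0.137).

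The 9 genes, the gene lists and the tests were chosen with earlier results of these data known. Named genes were the 9, their peaks, neighbours within 50 kb that overlap one or were called, up to 4 called genes per list and comparison by adjusted p with the closest relatives, and the 2 most similar genes. RNA of ACTL10, a neighbour that was not called, was added because of its promoter peak, after the values had been seen. Marker lists were read for hepatocytes, leukocytes, fibroblasts, endothelium, stomach epithelium and male germ cells. Fibroblast and stellate markers summed to at most 24.4, 13.1 and 0.790 CPM at 0, 2 and 10 µM, and endothelial markers to at most 10.5, 8.74 and 0.950 CPM. Some genes of the lists are counted but not reported by name here.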

Additional observations from a re-analysis of the deposited data

How the results depend on the processing

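Of 267 alternatives to the counts of called peaks, neighbours and list genes and of genes with at least 1 CPM, 235 kept the count within 1.5 times, 26 gave a lower and 6 a higher count; the causes were not tested. With DESeq2, peaks lower at 10 µM over 2 µM went to 0, and neighbours higher at 2 µM over 0 µM to 2, as they did with no filter. At a threshold of 0.01, those peaks numbered 0, those neighbours 0, neighbours higher at 10 µM over 0 µM 4, list genes at 2 µM over 0 µM 2 higher and 1 lower, and at 10 µM over 2 µM 8 higher and 22 lower. With a 10 kb window, which holds fewer genes, neighbours numbered 1 higher and 3 lower at 10 µM over 0 µM, and 1 higher and 3 lower at 10 µM over 2 µM. Total-count scaling gave 39 list genes higher at 10 µM over 0 µM and moved the median log2 change of all genes to 0.148 at 2 µM and 0.237 at 10 µM over 0 µM. Leaving out single libraries gave 0 to 1 peaks lower at 10 µM over 2 µM, 0 to 1 neighbours higher at 2 µM, 2 to 10 list genes higher and 1 to 6 lower at 2 µM (highest without 0 µM replicate 3, lowest without 2 µM replicate 1 or 2), and 8 to 23 list genes higher at 10 µM over 2 µM (8 without 10 µM replicate 1, 9 without 2 µM replicate 3, 23 without 0 µM replicate 3).

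Leaving out single libraries changed the sign of 3 values, none of them called: the DHRS9 peak at 2 µM over 0 µM ran from -0.107 without 0 µM replicate 2 to 0.632 without 0 µM replicate 1 (-0.0266 without 2 µM replicate 3), and the PXMP4 peak at 10 µM over 2 µM from -0.193 to 0.0212 (without 10 µM replicate 2). The log2 change of RNA at 10 µM over 2 µM moved by more than the SD between replicates in 6 cases, all with 1 library left out: to -6.17 for PXMP4, -2.93 and -4.07 for HPDL, -4.92 for TUBA3D, -4.87 for BTBD18 and 10.9 for ANXA10. The replicate block over all doses left every count within 1.5 times, with 6 list genes higher and 3 lower at 2 µM over 0 µM; the block over the 0 µM and 2 µM RNA libraries gave 4 higher and 3 lower, and it ended the call of TUBA3E, as given above.

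Depth limits the lowest values: 3 reads over a dose equal 0.0273, 0.0234 and 0.0209 CPM at 0, 2 and 10 µM, so 0 reads means no more than that. ATAC signal outside the authors' peaks was not counted.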
